A study of Sus scrofa with 15 samples.

Results

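Apolipoprotein genes were examined on single-colour arrays of pig kidney taken after ischemia with or without remote ischemic preconditioning. Remote preconditioning is a short interruption of blood flow to an organ other than the one to be injured. The 8 genes are APOA1, APOA2, APOA4, APOB, APOC3, APOE, APOM and APOR, which the RefSeq annotation lists as a synonym of C4BPA. They were chosen by name with earlier results of these arrays known, and APOA4 and APOC3 for their difference from the control group, so those differences are described without a test. A probe was found for 7 of the 8 genes, with 15 probes of the 43603 on the array, and APOB had no probe with its accession. In the whole series 6686 probes could be assigned to 3020 genes.

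All 15 pigs were 20-week-old female Yorkshire pigs with 1 array each, 5 per group. Their left kidney had been removed 1 week earlier, and the right kidney was clamped for 90 min of warm ischemia and taken after 72 hours. The control group had no preconditioning. The rIPCe group had 2 cycles of 10 min clamping of the right external iliac artery and 10 min reperfusion directly before the renal ischemia, and the rIPCl group had the same cycles 24 hours before it. A kidney without ischemia was not analysed here, so every level is that of a postischemic single kidney.

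Apolipoproteins are the protein part of lipoproteins, the particles that carry lipid in blood and lymph. They hold the particle together, act as cofactors or inhibitors of lipases and lipid-transfer enzymes, and serve as ligands of lipoprotein receptors. Most are made chiefly by liver and intestine. In the kidney, proximal tubule cells take up filtered apolipoproteins through the receptors megalin and cubilin, and these cells also produce APOM.

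Between 62.2% and 69.5% of spots were well above background on the control arrays, between 67.4% and 73.9% on the rIPCe arrays and between 71.8% and 74.2% on the rIPCl arrays. Each of the 15 apolipoprotein probes passed this background criterion on every array. With 5 arrays a group, their number sets the precision. Values are log2 signals after quantile normalization, a difference is a log2 fold change, and a gene is represented by its brightest probe. Array rIPCe 1 stood apart from the other 4 rIPCe arrays for APOA4 and APOE, so those values are given with and without it. Over all probes its mean correlation with the other rIPCe arrays was 0.978, and that of the other 4 with their own group was 0.979 to 0.982. The arrays lay on 4 slides. Slide 1 held control 1 to 4, slide 2 held control 5 and rIPCe 1 to 3, slide 3 held rIPCe 4 and 5 and rIPCl 1, and slide 4 held rIPCl 2 to 5, so slide and group overlap in large part. The preconditioned groups were compared with the same 5 control arrays.

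APOA4, a component of chylomicrons and high-density lipoprotein, had the largest difference among these genes. The control arrays 1 to 5 had log2 signals of 12.09, 11.49, 12.23, 11.46 and 11.16 (mean 11.69 ± 0.45, SD, n = 5). The rIPCl arrays had 7.62, 6.56, 6.67, 6.71 and 7.37 (6.98 ± 0.48, SD, n = 5). All 5 rIPCl arrays therefore lay far below every control array, and the mean was 26.0-fold lower, a log2 fold change of -4.70. The rIPCe arrays had 11.15, 7.43, 7.81, 6.40 and 6.52 (7.86 ± 1.93, SD, n = 5). Here 4 arrays were near the rIPCl level, and rIPCe 1 was at the level of the lowest control array, control 5. With all 5 arrays the rIPCe mean was 14.1-fold lower than the control mean (log2 fold change -3.82). Without rIPCe 1 it was 25.0-fold lower (-4.64), and the other 4 arrays had a mean of 7.04 ± 0.69 (SD, n = 4). The size of these differences depended on the background correction. With normexp, an alternative correction chosen after seeing the data, the log2 fold changes over all arrays were -3.86 in rIPCl and -3.12 in rIPCe.

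The second APOA4 probe followed the first with a correlation of 0.996 over the 15 arrays. Its log2 fold changes were -4.37 in rIPCl and -3.79 in rIPCe. On this probe rIPCe 1, at 8.00, lay above the lowest control array, so the rIPCe and control groups overlapped there, while the other 4 rIPCe arrays were between 3.38 and 4.59. As this is bulk tissue, fewer cells of a type and less RNA per cell cannot be told apart for any gene described here.

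**Figure D1:**
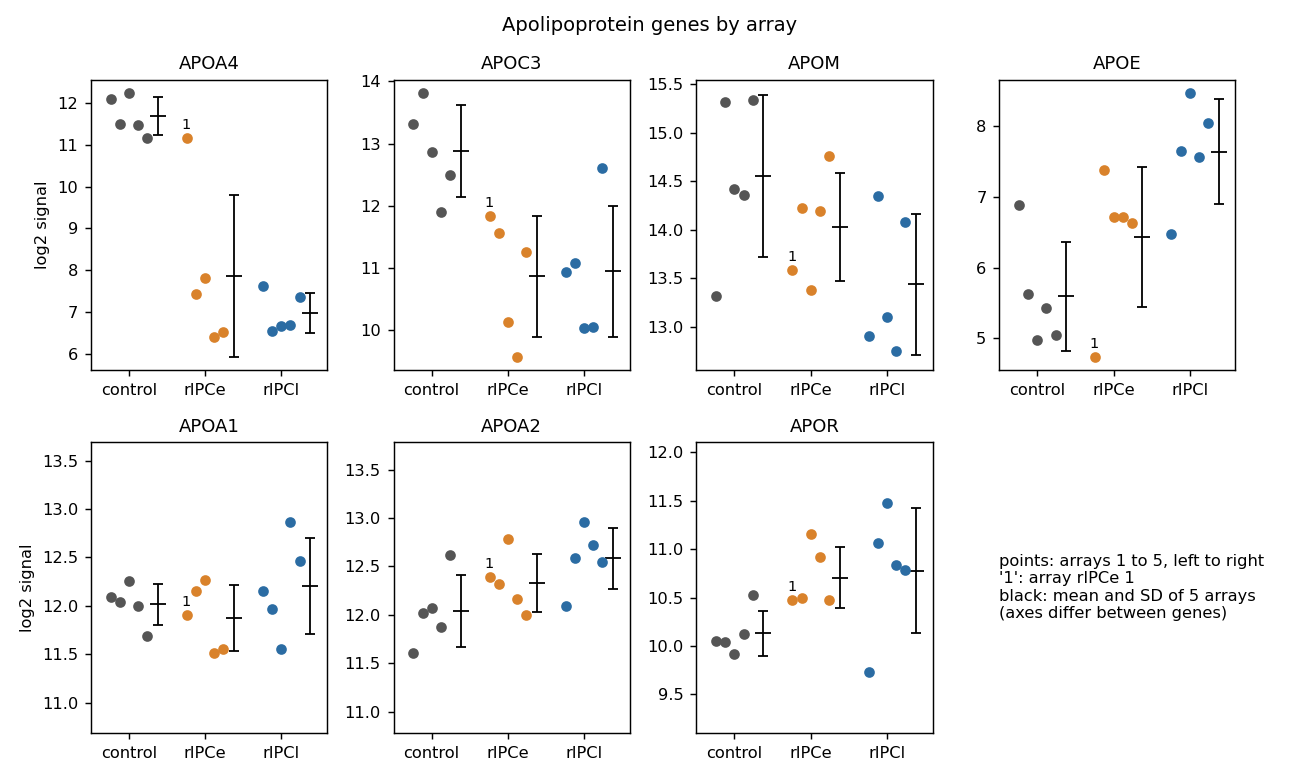
Log2 signal of the brightest probe of each apolipoprotein gene, with 1 point per array (arrays 1 to 5 from left to right in each group) and the mean and SD of 5 arrays in black; the axes differ between genes. APOA4 is above 11 on every control array and on rIPCe 1 and below 8 on all other arrays, and APOE is lowest on rIPCe 1.

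APOC3, an inhibitor of lipoprotein lipase carried on triglyceride-rich particles, was also lower in both preconditioned groups. The control arrays had log2 signals of 13.31, 13.81, 12.86, 11.90 and 12.50 (12.88 ± 0.74, SD, n = 5). The rIPCe arrays had 11.83, 11.57, 10.13, 9.57 and 11.25 (10.87 ± 0.97, SD, n = 5), all below the lowest control array. The rIPCl arrays had 10.94, 11.07, 10.04, 10.05 and 12.61 (10.94 ± 1.05, SD, n = 5). Of these, 4 lay below all control arrays and rIPCl 5 lay inside the control range. The mean was 4.03-fold lower in rIPCe (log2 fold change -2.01) and 3.83-fold lower in rIPCl (-1.94). A second probe gave -2.05 and -1.95, with a correlation of 0.996 between the probes. Without rIPCe 1 the rIPCe difference was -2.25.

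APOA1, the main protein of high-density lipoprotein, lies next to APOC3 in the pig genome. In the order of the Sscrofa11.1 annotation APOA5, a long noncoding RNA gene, APOA4, APOC3 and APOA1 follow each other, between ZPR1 and SIK3. The control arrays had APOA1 log2 signals of 12.09, 12.04, 12.26, 12.00 and 11.69. The rIPCe arrays had 11.90, 12.16, 12.26, 11.51 and 11.55, and the rIPCl arrays had 12.15, 11.97, 11.56, 12.86 and 12.47. The groups overlapped throughout. The log2 fold change was 0.19 ± 0.22 (SE) in rIPCl (limma adjusted p = 0.625) and -0.14 ± 0.22 in rIPCe (adjusted p = 0.819), and the exact permutation p values were 0.468 and 0.444. APOA5, an activator of lipoprotein lipase, had log2 fold changes of 0.51 (adjusted p = 0.144) and 0.06 (adjusted p = 0.933). Of the 4 measured genes of this group of neighbours, APOA4 and APOC3, which are described without a test, had lower means in both preconditioned groups. APOA1 had a lower mean in rIPCe only and APOA5 in neither group, and neither gene passed the test. The former and the latter genes are thus not judged by the same criterion.

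APOE, a ligand of lipoprotein receptors that macrophages also make, was higher in rIPCl than in the control group. The control arrays had log2 signals of 6.89, 5.63, 4.98, 5.42 and 5.06 (5.60 ± 0.77, SD, n = 5). The rIPCl arrays had 6.48, 7.65, 8.47, 7.56 and 8.04 (7.64 ± 0.74, SD, n = 5). The groups overlapped because rIPCl 1 lay below control 1, and the other 4 rIPCl arrays lay above all control arrays. The log2 fold change was 2.04 ± 0.50 (SE), 4.12-fold higher, with a limma adjusted p of 0.0353 and an exact permutation p of 0.0159. This call rests on a single probe. It was lost in 7 of the 15 fits that left out an array, namely control 2, 3 or 4 or rIPCl 2, 3, 4 or 5, where the adjusted p was between 0.0617 and 0.0840. The size depended on the background correction, as the APOE log2 fold change with normexp was 1.18 (limma adjusted p = 0.0240).

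In rIPCe the APOE signals were 4.74, 7.38, 6.71, 6.72 and 6.63 (6.43 ± 1.00, SD, n = 5). The lowest was rIPCe 1, below all control arrays, and the other 4 had a mean of 6.86 ± 0.35 (SD, n = 4), with rIPCe 2 above all control arrays and the remaining 3 below control 1 only. The log2 fold change was 0.84 ± 0.50 (SE, adjusted p = 0.461, exact permutation p = 0.183). Without rIPCe 1 it was 1.26, with an adjusted p of 0.154.

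Macrophage markers were set beside APOE. Of 11 listed macrophage genes 8 had a probe, all 8 detected on every array. By the adjusted test 4 of them, MRC1, C1QA, C1QB and C1QC, rose in rIPCl versus control, beside 6.27% of all probes. With slide as a random block 0 of all 43603 probes passed in this comparison, so these calls were lost there. The median log2 fold change of the 8 genes was 1.15, beside -0.03 over all probes. CD163 had 0.90 (adjusted p = 0.210), and CD14 had -0.12 (adjusted p = 0.836). The summed normalized signal of the 8 genes was 11139 to 30454 on the control arrays, 16170 to 28023 on the rIPCe arrays and 19030 to 48049 on the rIPCl arrays. Control 1, rIPCe 2 and rIPCl 3 were the highest of their groups both for APOE and in the mean log2 signal of these genes. Of the lowest arrays for APOE, rIPCl 1 was also lowest in that mean, at 10.75. So was rIPCe 1, at 10.54, but rIPCe 5 was close at 10.58. Control 3, the lowest control array for APOE, had 10.18 and was not the lowest, as control 5 had 9.96. The part of macrophage markers in the APOE difference was not tested.

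APOM, a carrier of sphingosine 1-phosphate made in the proximal tubule, had a lower mean in both preconditioned groups, without passing the adjusted test. The control arrays had log2 signals of 13.32, 15.32, 14.42, 14.36 and 15.34 (14.55 ± 0.84, SD, n = 5). The rIPCe arrays had 13.58, 14.22, 13.37, 14.20 and 14.76 (14.03 ± 0.55, SD, n = 5), and the rIPCl arrays had 12.91, 14.35, 13.10, 12.75 and 14.08 (13.44 ± 0.73, SD, n = 5). In rIPCl 3 arrays lay below all control arrays, of which control 1 was the lowest. The log2 fold change in rIPCl was -1.12 ± 0.43 (SE, adjusted p = 0.115, exact permutation p = 0.0397). In rIPCe it was -0.52 (adjusted p = 0.592, exact permutation p = 0.294). The second probe gave -1.50 (adjusted p = 0.0727) and -0.95 (adjusted p = 0.392), with a correlation of 0.961 between the probes. Without control 1 the rIPCl difference was -1.42 and passed the test (adjusted p = 0.0450). It did not pass in the other 14 of the 15 fits that left out an array. Over these 15 fits the difference ranged from -1.42 to -0.92, and the adjusted p reached 0.240.

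Proximal tubule markers were set beside APOM. Of 16 listed genes 13 had a probe, of which 11 had a lower and 2 a higher mean in rIPCl than in the control group. The adjusted test was passed by 2, the gluconeogenic enzyme gene FBP1 (log2 fold change -0.91) and the amino acid transporter gene SLC7A9 (-1.24), beside 6.27% of all probes. Both calls were lost with slide as a random block, where 0 of all 43603 probes passed. The list median was -0.62. GATM, an enzyme gene of creatine synthesis, had 1.05 (adjusted p = 0.104), and HNF4A, a transcription factor of these cells, 0.31 (adjusted p = 0.525). The 3 HNF4A probes ranged from -0.21 to 0.31. The summed signal of the 13 genes was 201949 to 615025 on the control arrays, 197409 to 491089 on the rIPCe arrays and 153492 to 440978 on the rIPCl arrays. FABP1 was well above background on 7 of 15 arrays and the other 12 genes on all. The part of these markers in the differences of APOM, APOA4 and APOC3 was not tested.

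APOA2, the second protein of high-density lipoprotein, had 1 probe and small differences. The control arrays had log2 signals of 11.60, 12.02, 12.07, 11.87 and 12.62, the rIPCe arrays 12.39, 12.32, 12.78, 12.16 and 11.99, and the rIPCl arrays 12.09, 12.59, 12.96, 12.72 and 12.54. The groups overlapped, with control 5 inside the rIPCl range. The log2 fold change was 0.55 in rIPCl (adjusted p = 0.110, exact permutation p = 0.0556) and 0.29 in rIPCe (adjusted p = 0.532, exact permutation p = 0.222). The difference in rIPCl was 0.69 without control 5 (adjusted p = 0.0383) and 0.67 without rIPCl 1 (adjusted p = 0.0492). It did not pass in the other 13 of the 15 fits that left out an array, and it was -0.10 with slide as a fixed block.

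APOR is a pig apolipoprotein built of complement control repeats. The 5 probes with accessions of its record did not give the same size of change, and whether all measure the same transcript is not known. On the brightest probe the control arrays had log2 signals of 10.05, 10.04, 9.92, 10.13 and 10.53. The rIPCe arrays had 10.48, 10.50, 11.16, 10.92 and 10.48, and the rIPCl arrays had 9.73, 11.07, 11.48, 10.83 and 10.79. All rIPCl arrays but rIPCl 1, which lay below the control range, were above all control arrays. The log2 fold change was 0.65 in rIPCl (adjusted p = 0.138, exact permutation p = 0.0952) and 0.57 in rIPCe (adjusted p = 0.349, exact permutation p = 0.0317). Over the 5 probes it ranged from 0.18 to 1.90 in rIPCl and from 0.18 to 1.83 in rIPCe, with correlations of 0.580 to 0.939 between probes. No APOR probe passed the adjusted test with all arrays. In rIPCl the brightest had 0.91 without rIPCl 1 (adjusted p = 0.0210) and did not pass in the other 14 of the 15 fits that left out an array. With slide as a fixed block it had -0.79.

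**Figure D2:**
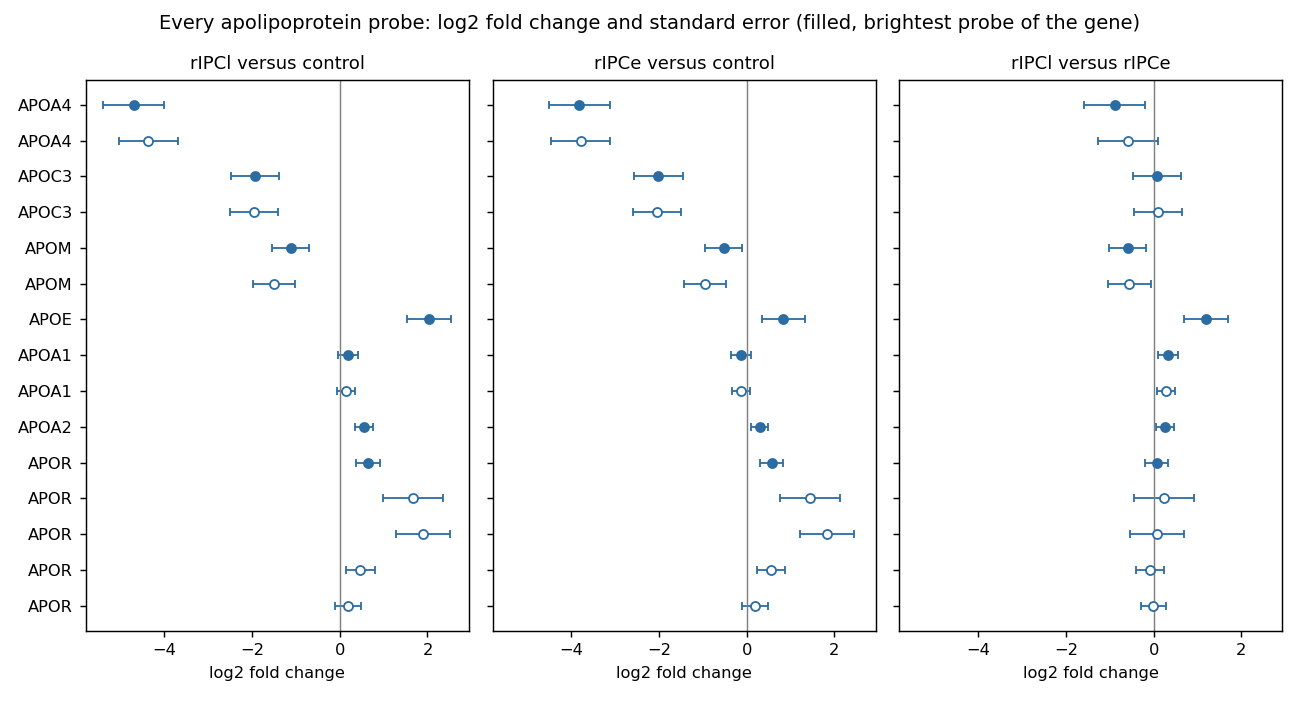
Log2 fold change (x axis) and its standard error from limma for each of the 15 apolipoprotein probes in the 3 comparisons; filled points are the brightest probe of a gene. The probes of APOA4, APOC3, APOA1 and APOM lie close to each other, and the 5 APOR probes spread from 0.18 to 1.90 in rIPCl versus control.

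Over the 7 measured genes, 2 had an adjusted p under 0.05 in rIPCl versus control, APOA4 and APOE, where 6.27% of all probes did. APOA4 and APOC3 were chosen for their difference from the control group. Nothing is therefore read from this count or from the other counts against the control group in this paragraph. A fold change of at least 2 with an unadjusted p under 0.05 was met by the brightest probe of 4 genes, APOA4, APOC3, APOM and APOE, beside 5.83% of all probes. Dimmer APOR probes met it too. An unadjusted p under 0.05 was reached by 6 genes, beside 26.8%. In rIPCe versus control 0 genes had an adjusted p under 0.05 by limma, beside 0.00229% of all probes, and 3 had an unadjusted p under 0.05, beside 14.1%. Without rIPCe 1 the count was 1, APOA4, which was chosen on this difference, and 267 of all 43603 probes passed. The fold criterion was met by the brightest probes of APOA4 and APOC3 in rIPCe, beside 2.18% of all probes. A dimmer APOR probe met it there too, with a log2 fold change of 1.83. Groups did not overlap with the control group for 1 gene in rIPCl, APOA4, and for 2 in rIPCe, APOA4 and APOC3, beside 9.48% and 3.3% of all probes. The median log2 fold change of the 7 genes was 0.19 in rIPCl and -0.14 in rIPCe, beside -0.03 and -0.01 over all probes. In rIPCl 4 of the 7 genes had a higher and 3 a lower mean than the control group.

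The direct comparison of rIPCl with rIPCe was not used to choose the genes, and 0 of the 7 passed the adjusted test, as did 0% of all probes. APOE had the largest difference, 1.20 ± 0.50 (SE, unadjusted p = 0.0305, adjusted p = 0.979, exact permutation p = 0.0556). It was the only gene past the fold criterion, beside 0.525% of all probes, and the only one with an unadjusted p under 0.05, beside 3.85%. Without rIPCe 1 its difference was 0.78. APOA4 differed by -0.88 ± 0.70 (SE, exact permutation p = 0.476), and by -0.06 without rIPCe 1. APOC3 differed by 0.08 ± 0.55 (SE, exact permutation p = 0.937). APOM differed by -0.59 ± 0.43 (SE, exact permutation p = 0.206), and APOA1, APOA2 and APOR by 0.32, 0.25 and 0.07. The rIPCl and rIPCe groups overlapped for 7 of 7 genes, beside 0.713% of all probes whose groups did not. Over the 17 exact permutation tests of these genes the lowest Benjamini-Hochberg adjusted p was 0.189, and the smallest p that 5 arrays against 5 can give is 0.00794.

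Because slide and group overlap in large part, values within a slide rest on few arrays. On slide 2 the 3 rIPCe arrays were compared with control 5. APOA4 differed there by -2.36, with rIPCe 1 at 11.15 and control 5 at 11.16, APOC3 by -1.33, APOM by -1.62 and APOE by 1.22. On slide 3 rIPCl 1 was compared with rIPCe 4 and 5. APOA4 differed by 1.16, APOC3 by 0.53, APOE by -0.20 and APOM by -1.58.

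With slide as a fixed block the rIPCl versus control difference was -1.20 for APOA4, -0.80 for APOC3, -3.19 for APOM and 1.02 for APOE (adjusted p = 0.814). The rIPCe versus control differences in that fit were those of slide 2. With slide as a random block, whose correlation within a slide was 0.228, the rIPCl differences were -4.22, -1.78, -1.41 and 1.90 (adjusted p for APOE = 0.250). No slide held both rIPCl and control arrays, so that for this comparison slide and group can be told apart only through rIPCe.

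**Figure D3:**
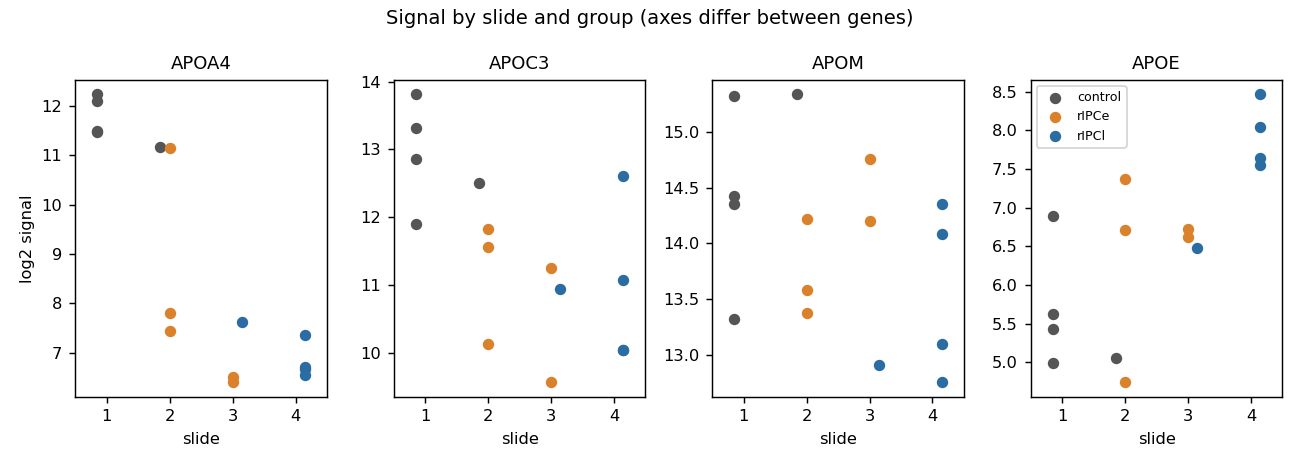
Log2 signal of APOA4, APOC3, APOM and APOE (y axis, which differs between genes) by slide (x axis), with 1 point per array coloured by group. Control arrays lie on slides 1 and 2 and rIPCl arrays on slides 3 and 4; on slide 2 APOA4 is near 11 on control 5 and rIPCe 1 and near 7.43 to 7.81 on the other rIPCe arrays.

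The genes whose signals were most like those of APOA4 over the 15 arrays were compared by Pearson correlation among 2575 genes, as a description. They were NQO1, a quinone reductase (r = 0.954), DBI, a carrier of acyl-CoA (0.937), GSTO1, a glutathione transferase (0.933), TXN, thioredoxin (0.932), and NDUFC1, a subunit of respiratory complex I (0.925). After subtraction of group means the correlations were 0.868, 0.828, 0.733, 0.838 and 0.837. For NQO1 rIPCe 1 had 12.56, above the control range of 11.60 to 12.50, while the median of rIPCe was 8.87. In each of the other 4 genes rIPCe 1 was the highest rIPCe array too and lay within the control range. These genes were picked for their likeness to APOA4 on the same arrays, and rIPCe 1 is far from its group in APOA4. Their high rIPCe 1 signal therefore follows largely from the choice and is no separate result. That array also weighs heavily in the correlations after subtraction of group means. The 15 arrays share groups and slides, so these correlations are not independent of either.

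For APOC3 the most alike genes had lower correlations. They were SLC35A3 (0.867), a Golgi nucleotide sugar transporter, LACTB2 (0.867), a mitochondrial nuclease, FTH1 (0.858), the ferritin heavy chain, CTSB (0.857), a lysosomal protease, and URM1 (0.854), a ubiquitin-like protein. With group means removed they were 0.674 to 0.759. In rIPCl versus control they differed by -0.21 to -0.82, less than the -1.94 of APOC3.

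**Figure D4:**
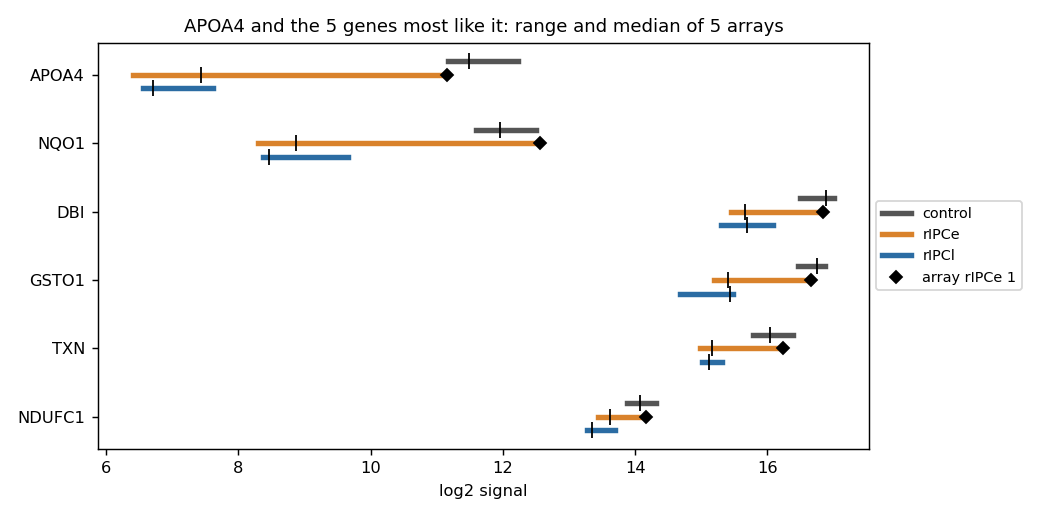
Range (coloured line) and median (tick) of the log2 signal of 5 arrays per group for APOA4 and the 5 genes with the highest correlation with it over the 15 arrays; the diamond is array rIPCe 1. In all 6 genes rIPCe 1 lies at the top of the rIPCe range, and for NQO1 it is at 12.56. As the 5 genes were chosen by this correlation, the place of rIPCe 1 follows largely from the choice. Signals are not compared between genes.

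Of 16 other apolipoprotein genes listed, 4 had a probe, and 2 rose in rIPCl versus control, where APOA4 was lower. SAA3, an acute-phase protein of high-density lipoprotein, had a log2 fold change of 3.22 (adjusted p = 0.0244), with 4 of 5 arrays above all control arrays. CLU, clusterin or apolipoprotein J, had 2.02 (adjusted p = 0.0277), with all 5 arrays above the control arrays. The groups did not overlap for 9.48% of all probes. APOF, an inhibitor of cholesteryl ester transfer, had 0.54 (adjusted p = 0.512). In rIPCe SAA3 and CLU had 1.92 (adjusted p = 0.232) and 1.48 (adjusted p = 0.206).

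Among 19 listed lipoprotein receptors 7 had a probe and none passed the adjusted test in rIPCl. There 1 had an unadjusted p under 0.05, beside 26.8% of all probes. That was the lysosomal receptor gene SCARB2, with -0.31 (adjusted p = 0.0505) and no overlap with the control group, beside 9.48% of all probes. The high-density lipoprotein receptor gene SCARB1 had 0.20, VLDLR -0.33 and the APOE receptor gene LRP8 -0.60. Over 2 VLDLR probes the range was -0.99 to -0.33, and over 4 SCARB1 probes it was -0.04 to 0.21. The genes of megalin and cubilin, LRP2 and CUBN, and also AMN, had no assigned probe.

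Of 17 lipases and plasma enzymes 11 had a probe. PLTP, the phospholipid transfer protein gene, rose (1.30, adjusted p = 0.0357). LIPA, the lysosomal acid lipase gene, fell (-0.75, adjusted p = 0.0330), as did PON2, a paraoxonase gene (-0.84, adjusted p = 0.0422). PON1, which is carried on high-density lipoprotein, had -0.98 (adjusted p = 0.0916), LPL, the lipoprotein lipase gene, 0.44 and the cholesterol-esterifying LCAT -0.43.

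Of 17 genes for particle assembly and cholesterol transport 9 had a probe and 2 fell. They were SCP2, a sterol carrier (-1.58, adjusted p = 0.0394), and SAR1B, which acts in chylomicron export from the endoplasmic reticulum (-0.73, adjusted p = 0.0390). MTTP, the microsomal transfer protein gene of lipoprotein assembly, had 0.06 (adjusted p = 0.940), and STARD3 0.31.

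Of 22 transcription factors of lipid and liver genes 12 had a probe and none passed the adjusted test in rIPCl. An unadjusted p under 0.05 was reached by 1, SREBF1 (0.66, adjusted p = 0.125), beside 26.8% of all probes. PPARD and PPARG had 0.67 and -0.33. List medians in rIPCl versus control were 1.28 for the other apolipoproteins, -0.19 for receptors, -0.68 for lipases and plasma enzymes, 0.07 for assembly and transport and 0.13 for transcription factors, beside -0.03 over all probes. In rIPCl versus control 7 of the 43 measured genes of these 5 lists passed the adjusted test, beside 6.27% of all probes. None of these 7, SAA3, CLU, PLTP, LIPA, PON2, SCP2 and SAR1B, passed with slide as a fixed or random block or with the methods' t-test, and for each the adjusted p was above 0.05 in at least 1 of the 15 fits without an array (highest 0.0620 for SAA3 to 0.101 for PON2). With slide as a fixed block PLTP had 0.29, in place of 1.30. In rIPCe versus control 0 of the 43 measured genes of these 5 lists passed the adjusted limma test and 9 had an unadjusted p under 0.05, beside 14.1% of all probes, and in rIPCl versus rIPCe both counts were 0.

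**Figure D5:**
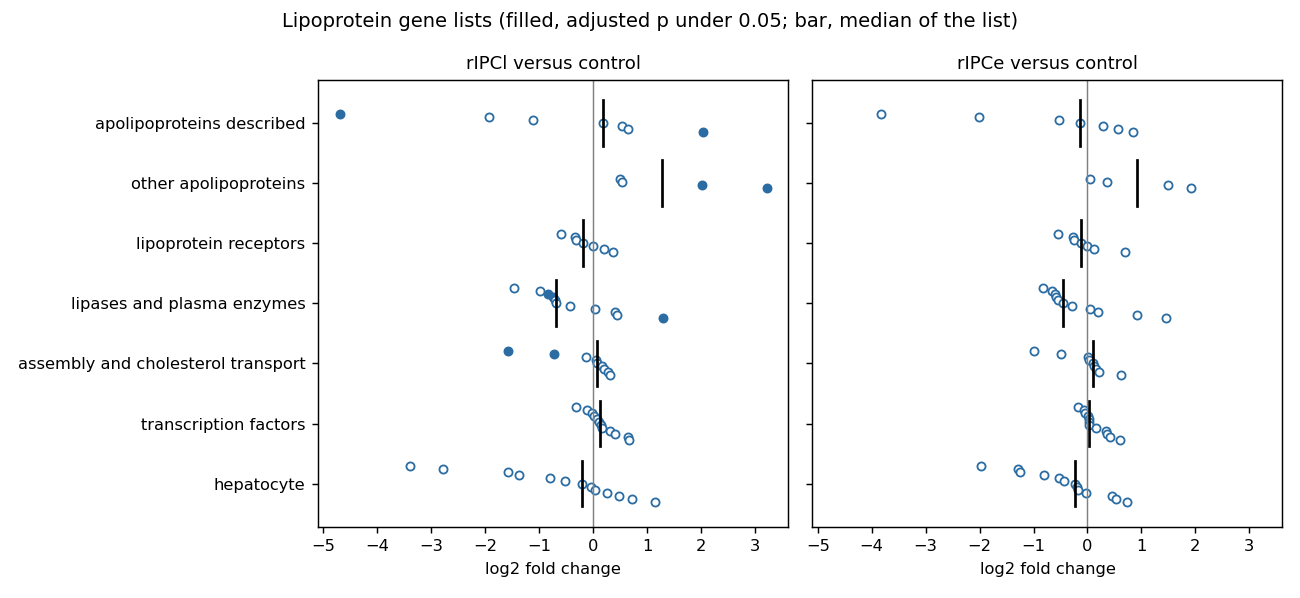
Log2 fold change (x axis) of the 7 apolipoprotein genes described and of the measured genes of 6 lists in rIPCl and rIPCe versus control, with 1 point per gene, filled where the adjusted p was under 0.05, and a bar at the list's median. APOA4 has the lowest value at -4.70, and SAA3 the highest at 3.22 in rIPCl.

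Since liver and intestine make most APOA4 and APOC3, their markers were set beside these genes. Of 18 listed hepatocyte genes 13 had a probe, and none passed the adjusted test in rIPCl, where 4 had an unadjusted p under 0.05, beside 26.8% of all probes. TTR, transthyretin, had -3.39 (adjusted p = 0.0569), TF, transferrin, -2.78 (adjusted p = 0.0916) and ALB, albumin, 0.03 (adjusted p = 0.977). VTN, vitronectin, was higher on its brightest probe at 1.15 (adjusted p = 0.139), and in all 5 of the 13 genes had a higher and 8 a lower mean. Other probes of these genes gave other sizes. The range was -3.67 to -3.39 over 3 TTR probes and -2.78 to -0.91 over 4 TF probes. It was -1.42 to 0.47 over 19 ALB probes and 0.06 to 1.15 over 6 VTN probes. SERPINA1 and CYP2E1 were well above background on 0 arrays and ALB on 13, and the other 10 genes on all 15. The summed signal of the list was 25254 to 53887 on the control arrays, 16942 to 60396 on the rIPCe arrays and 15308 to 41611 on the rIPCl arrays.

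Of 12 enterocyte genes 4 had a probe, and none passed the adjusted test in rIPCl, with 1 at an unadjusted p under 0.05, beside 26.8% of all probes. FABP2, the intestinal fatty acid binding protein gene, was well above background on 2 of 15 arrays and RBP2 on 10. The summed signal was 22214 to 49296 on the control arrays, 17874 to 33471 on the rIPCe arrays and 16879 to 34479 on the rIPCl arrays.

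Of the remaining kidney and infiltrating cell markers, LUM among 3 measured fibroblast genes rose in rIPCl (1.49, adjusted p = 0.0450), beside 6.27% of all probes. Over 9 LUM probes the range was 0.65 to 1.58. The call was lost with slide as a random block, where 0 of all 43603 probes passed. All 4 T cell genes had an unadjusted p under 0.05 with a list median of 1.38, and none passed the adjusted test. The distal nephron, podocyte and endothelial lists had 2, 1 and 3 measured genes, of which 0 passed limma at either an adjusted or an unadjusted p under 0.05. The part of these cells in the apolipoprotein differences was not tested.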

How the data were processed

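Kidney RNA of 15 pigs, 5 per group, was hybridised to Agilent porcine arrays, 1 per pig. The authors deposited spot intensities from Agilent Feature Extraction 11.0.1.1, background-corrected within each array and not normalized between arrays, and the same intensity values averaged per probe. Spots marked as outliers were dropped. Signals were then taken to log2, quantile normalized between arrays as in the study's methods, and averaged per probe. Probes were named by RefSeq accession. A linear model with 1 mean per group was fitted to all 43603 probes on all 15 arrays with limma 3.58.1 (R 4.3.3, data.table version 1.17.8), and p values were adjusted by Benjamini-Hochberg over all probes. Limma took the place of the t-test of the study's methods. Single genes were also tested by exact two-sided permutation. The pipeline was tested on simulated data. The genes and lists were chosen with earlier results of these data known. Each list is represented by up to 4 genes of largest change in rIPCl plus a set of genes given by name. The order of neighbouring genes was taken from the Sscrofa11.1 annotation. Sequences were not used here, nor was the planned search for promoter motifs run. Alternatives were scaling to the 75th percentile, normexp background correction, the deposited probe means, dropping dim probes, keeping outlier spots, fitting just the 10 arrays of a comparison, replicate and slide blocks, the methods' t-test, averaging a gene's probes and leaving out each array. Each array is a separate pig. The results of some listed genes are not reported here by name.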

Additional observations from a re-analysis of the deposited data

Results flagged for a closer look

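For each probe of the named genes the most distant array of each group of 5 was set against the group's whole range, and 9 of 129 groups had a gap above the critical value. Chance flags about 1 in 20 such groups. Of the 45 groups of apolipoprotein probes 2 stood out, both through rIPCe 1. On the second APOA4 probe rIPCe 1 had a log2 signal of 8.00 beside 3.38 to 4.59 on the other rIPCe arrays, a gap of 0.738 of the range. For APOE rIPCe 1 had 4.74 beside 6.63 to 7.38, a gap of 0.716. For LIPA rIPCe 1 was also apart, the highest rIPCe array at 11.31 (0.778). Array rIPCl 1 was the lowest of its group for APOA5 (0.739), PPARD (0.725) and SREBF1 (0.805). Control 5 was the highest control for PPARD (0.734), control 4 for ALB (0.725) and control 3 for FABP2 (0.795).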

How the results depend on the processing

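The count of apolipoprotein genes with an adjusted p under 0.05 in rIPCl versus control was 2. It was 0 with slide as a fixed or as a random block, 1 with the methods' t-test, 3 with the 75th percentile scaling, normexp or dim probes dropped (APOC3 added), and 1 to 4 when an array was left out. It was 1 without control 2, 3 or 4 or rIPCl 2, 3, 4 or 5, and 4 without control 5 or rIPCl 1. At the fold criterion the count of 4 became 1 with slide as a fixed block and 3 to 4 with an array left out. In rIPCe versus control the count of 0 was 0 to 1 with an array left out, 1 being without rIPCe 1, and the count of 2 at the fold criterion was 0 with slide as a fixed block and 2 to 3 with an array left out. In rIPCl versus rIPCe the count of 1 at the fold criterion was 0 with normexp, chosen after seeing the data, with either slide block, with the replicate block and with the t-test, and 0 to 1 with an array left out, 0 being without rIPCe 1 or rIPCl 3 or 5. The cause was not tested. Nothing is read from the counts against the control group, since APOA4 and APOC3 were chosen for that difference.

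Arrays with the same number in different groups had correlations of their deviations from -0.262 to 0.0741 over 15 pairs, so the numbers did not pair the pigs. With the replicate block 3 genes, APOA4, APOC3 and APOM, were called in rIPCl versus control, of which APOA4 and APOC3 were chosen on this comparison, APOE was not (adjusted p = 0.0700), and 0 were called in rIPCe.

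With slide as a fixed block the direction reversed for APOA2 (-0.10), APOR (-0.79), APOA5 (-0.030), LRP8 (1.17), VLDLR (0.35), LCAT (0.0078), MTTP (-1.05) and FABP1 (1.89) in rIPCl, for APOA1 (0.42) and APOA2 (-0.12) in rIPCe, and for APOA4 (1.16), APOE (-0.20) and APOR (-0.97) between rIPCl and rIPCe. With the random block MTTP was -0.10 in rIPCl and APOR -0.12 between rIPCl and rIPCe. With normexp MTTP was -0.014, ALB -0.065 and FABP2 0.022, and over the mean of all probes ALB was -0.38. With an array left out the ranges crossed 0 for MTTP (-0.12 to 0.28), ALB (-0.18 to 0.51) and FABP1 (-1.02 to 0.14) in rIPCl, and for APOC3 (-0.34 to 0.32) and APOR (-0.10 to 0.33) between rIPCl and rIPCe.

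Over all probes the 2736 adjusted calls in rIPCl versus control became 7734 with the 75th percentile scaling, which moved the median of all probes to -0.11, 987 with the replicate block, 479 and 0 with the fixed and random slide blocks, 1548 with the t-test and 49 to 4913 with an array left out. In rIPCe versus control the single call became 1189 with the fixed slide block, 2 with the 75th percentile scaling, 0 with the replicate block or only the 10 arrays compared, and 1 to 267 with an array left out, 267 being without rIPCe 1. In rIPCl versus rIPCe the 0 calls became 112 with the fixed slide block, 2 with the t-test, 1 with only the 10 arrays compared and 0 to 2 with an array left out. Normexp on the mean signal could not be run, as the files hold the median signal, which was used.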
